A study of Mus musculus with 2 samples.

Results

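The miRNA genes Mir675, Mir483, Mir335, Mir296 and Mir298 belong to the imprinted loci of H19, Igf2, Mest and Nespas. They were selected by gene symbol and make up 5 of the 2202 miRNA genes counted in adrenal gland of C57BL/6J mice. The series holds 1 group with 2 replicate libraries of small RNA (inserts under 30 nt), described as wild type and male in 1 label, while the sex field reads not collected and age and stage are unknown. Both replicates carry separate tissue records but 1 shared donor record, so they are not shown to be separate animals. P-values between them compare the libraries against counting noise only, and differences past that noise may be technical. No treatment, allele or second condition is part of the design, so what follows describes levels and the agreement of the replicates. The samples are whole glands, in which fewer cells of a type and less RNA per cell cannot be told apart.

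Imprinted genes are transcribed mainly from 1 parental chromosome, and many of them act on fetal and placental growth. H19 is a noncoding RNA made from the maternal chromosome, whereas its neighbour Igf2, a growth factor gene, as well as Mest and Nespas, a noncoding transcript antisense to part of the Gnas locus, are made from the paternal one. A miRNA is cut from a hairpin in a longer transcript, and bases 2 to 8 of the mature strand, the seed, pair with target messages. In the adrenal, IGF2 and miR-483 are best known for being raised together in adrenocortical carcinoma. The mice are of 1 inbred strain, so the parental allele behind a read was not read out here.

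All 5 genes matched a RefSeq hairpin (GRCm38.p6) at the same position as in GENCODE M21. The 10 mature strands are printed because they are the molecules these libraries count and because they show that the members differ in sequence. They are written 5′ to 3′ with the seed in capitals:
miR-335-5p: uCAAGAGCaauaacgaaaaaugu
miR-335-3p: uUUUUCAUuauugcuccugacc
miR-298-5p: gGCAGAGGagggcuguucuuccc
miR-298-3p: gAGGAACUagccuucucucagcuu
miR-296-5p: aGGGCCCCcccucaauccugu
miR-296-3p: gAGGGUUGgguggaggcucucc
miR-483-5p: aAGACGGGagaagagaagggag
miR-483-3p: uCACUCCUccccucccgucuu
miR-675-5p: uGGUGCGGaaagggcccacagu
miR-675-3p: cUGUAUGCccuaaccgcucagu

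The 10 seeds were all distinct, and none was found in a mature strand of another gene among the 1738 mature entries of the RefSeq table, which is not complete. The strands of Mir335 stood apart in base composition, with 30.4% and 36.4% G or C for miR-335-5p and miR-335-3p. The other 8 strands ranged from 50.0% (miR-298-3p) to 68.2% (miR-296-3p), beside a median of 52.2% over all mature entries. miR-296-5p holds an unbroken run of 7 C, and each Mir335 strand holds a run of 5 equal bases. The deposited tables count reads per hairpin, so the levels below are sums over both strands of a hairpin. No stretch of 20 nt of the 5 hairpins occurred in another miRNA gene of GENCODE M21 on either strand. The sole match in another transcript was that of Mir675 within H19, its own host, so no other annotated miRNA gene shares reads with these genes over that length. Unannotated parts of the genome were not searched.

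On mm10, Mir675 (ENSMUSG00000076275.1) lies at chr7:142577064-142577147 on the minus strand. It overlaps an exon in 3 and lies in an intron in 1 of 7 annotated H19 transcripts, and 3 do not cover it. Mir483 (ENSMUSG00000070140.1) lies at chr7:142654924-142654996 on the minus strand, 77.8 kb from Mir675, in an intron of 7 of 9 Igf2 transcripts. Mir335 (ENSMUSG00000065501.1) lies at chr6:30741299-30741396 on the plus strand, in an intron of 7 of 11 Mest transcripts. Mir296 (ENSMUSG00000065521.1, chr2:174267047-174267125) and Mir298 (ENSMUSG00000065410.1, chr2:174267504-174267585) are both on the minus strand, 378 nt apart. These 2 genes lie outside every annotated transcript of Nespas. Along the strand of Nespas they follow its annotated end after 13.7 kb (Mir298) and 14.1 kb (Mir296), although they are known as part of the same imprinted Gnas cluster, so Nespas is used below as a name of the locus and not as an annotated host.

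**Figure D1:**
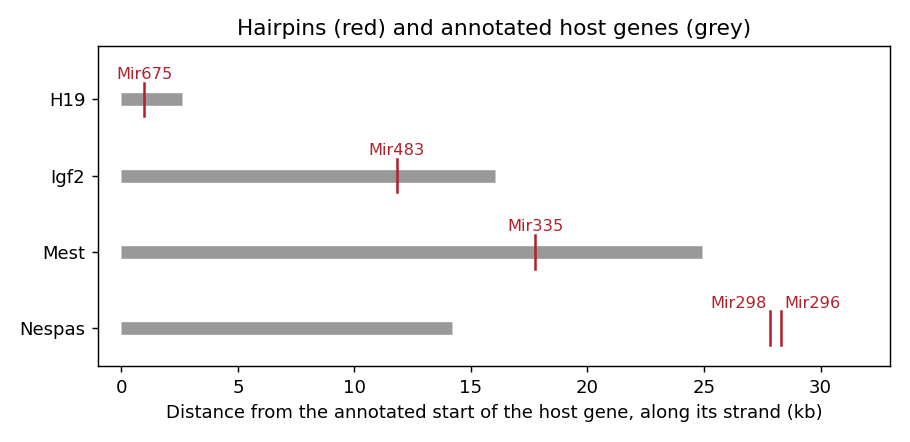
Position of each hairpin (red line) along its host gene (grey bar), in kb from the annotated start of the host along its strand. Mir675, Mir483 and Mir335 lie inside H19, Igf2 and Mest, whereas Mir298 and Mir296 lie 13.7 and 14.1 kb past the annotated end of Nespas.

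In replicate 1, 10263894 sense reads fell in miRNA genes and in replicate 2, 3525666, out of 20598186 and 10628898 reads. Unmapped reads made up 13.8% and 41.4% of the libraries. Of the mapped reads, 37.8% in replicate 1 and 38.8% in replicate 2 were multimapping and entered no gene. Levels, shares and ranks below therefore leave these reads out. Of uniquely mapped reads, 92.9% and 92.6% fell in miRNA genes. Levels are given as CPM, counts scaled to a total of 1000000 assigned counts per library. Neuroendocrine marker miRNAs such as Mir375, known from chromaffin and other endocrine cells, summed to 73582 and 80197 CPM in replicates 1 and 2, and all of the 7 but 1 were detected. The liver marker Mir122 had 104 and 97.6 CPM and was detected. Kidney and gut markers summed to 74.1 and 83.1 CPM, with 2 of 4 detected. Epithelial markers summed to 48.6 and 43.1 CPM, with 2 of 5 detected. The markers of skeletal and cardiac muscle summed to 3.60 and 4.82 CPM, and those of pancreatic acinar cells to 1.66 and 0.284 CPM. Among muscle markers, Mir1a-1, Mir1a-2, Mir133a-1, Mir133a-2, Mir208a and Mir208b had no count, as had Mir216a among acinar markers. Mir1a and Mir133a are each listed as copies, whose reads may be set aside as multimapping. Their zeros may therefore come from the counting rule and do not show that muscle was absent. The marker lists held no miRNA specific to the cortex.

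The 5 genes together took 0.462% of assigned counts in replicate 1 (47470 counts, Wilson 95% interval 0.458% to 0.467%) and 0.300% in replicate 2 (10572 counts, 0.294% to 0.306%), a mean of 0.381% ± 0.115 (SD, n = 2). Mir335 supplied most of this, with 74.9% and 84.7% of the group's counts. Mir298 supplied 18.5% in replicate 1 and 7.33% in replicate 2, Mir296 supplied 6.40% and 7.64%, and Mir483 only 0.244% and 0.341%. Mir675 supplied 0 counts. Detection was set at 10 CPM or more in each of the 2 libraries, which 4 of the 5 reached, beside 267 of 2202 (12.1%) of all miRNA genes. Intervals and limits cover counting error only, since amplified copies of a molecule count as separate reads.

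Mir335, known as a suppressor of tumour cell invasion, was the most abundant of the 5. Replicate 1 gave 35547 counts (3463 CPM) and replicate 2 gave 8953 counts (2539 CPM), a mean of 3001 ± 653 CPM (SD, n = 2). It ranked 39th and 44th of all miRNA genes in the respective libraries, and its mean exceeded that of 98.2% of them. Both its values lay above every value of the other 4 genes. The distance to the next gene differed between the libraries, since Mir335 exceeded Mir298 4.05-fold (exact 95% interval 3.96 to 4.15) in replicate 1 and 11.6-fold (10.7 to 12.4) in replicate 2.

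Mir298 and Mir296, the neighbours at the Gnas cluster, came next. Mir296, which has been described as a regulator of blood vessel growth, had 3037 counts (296 CPM) in replicate 1, 808 counts (229 CPM) in replicate 2 and a mean of 263 ± 47.2 CPM. Mir298 had 8770 counts (854 CPM) and 775 counts (220 CPM), a mean of 537 ± 449 CPM. Mir298 stood above Mir296 in replicate 1, and in replicate 2 the order of the 2 genes was within counting error, since the exact 95% interval of their ratio (0.868 to 1.06) includes 1. Mir298 ranked 76th and Mir296 122nd in replicate 1, whereas in replicate 2 Mir296 ranked 133rd and Mir298 136th. The range of Mir298 spans that of Mir296, so their mean levels do not differ beyond the spread between replicates.

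Mir483, the Igf2 miRNA, stood at the detection threshold. It had 116 counts (11.3 CPM) in replicate 1, 36 counts (10.2 CPM) in replicate 2 and a mean of 10.8 ± 0.77 CPM (SD, n = 2), at ranks 277 and 270. Its Wilson 95% intervals, 0.000942% to 0.00136% and 0.000738% to 0.00141% of counts, overlap and include 10 CPM (0.001%) in both libraries. Mir335 exceeded it 306-fold (255 to 371) in replicate 1 and 249-fold (179 to 355) in replicate 2.

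Mir675, the miRNA cut from H19, had no count in either replicate and in none of the 3 count columns. The upper limit that goes with 0 counts, taken as 3 counts per library, equals 0.292 CPM for replicate 1 and 0.851 CPM for replicate 2. Against that limit per library, Mir483 was at least 38.7-fold higher in replicate 1 and at least 12.0-fold higher in replicate 2, and Mir335 at least 11849-fold and 2984-fold. In all, 1435 of the 2202 miRNA genes had no count in either library, Mir675 among them. The long transcript H19 was not measured by these libraries of short inserts.

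**Figure D2:**
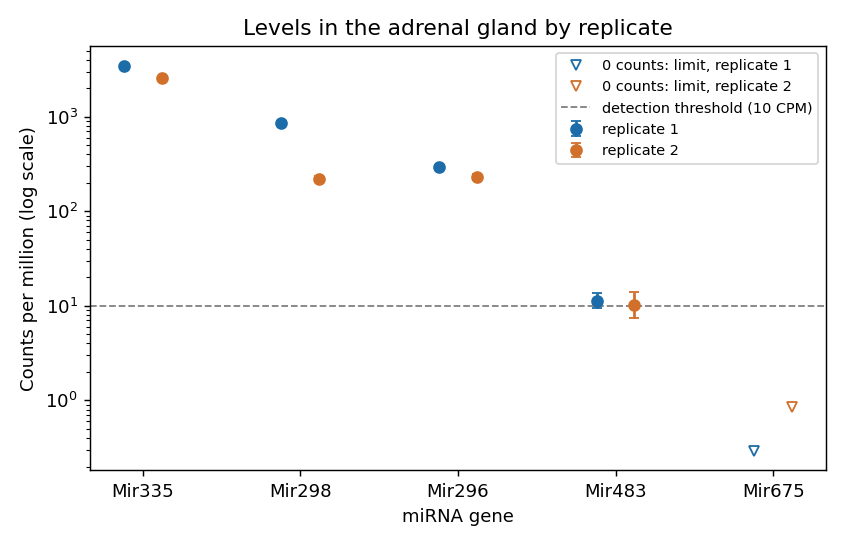
Level in CPM (log scale) of each gene in replicate 1 (blue) and replicate 2 (orange), with Wilson 95% intervals for counting error. Mir335 lies highest, Mir298 lies above Mir296 in replicate 1 and beside it in replicate 2, Mir483 lies at the 10 CPM threshold, and the open triangles give the limit that 0 counts allow for Mir675.

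The order of levels was therefore Mir335, then Mir298 and Mir296 without separation, then Mir483, then Mir675. Mir335, Mir483 and Mir675 did not overlap any other member over the 2 libraries.

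Each gene was then compared between the replicates by a two-sided exact binomial test, which asks whether 2 libraries differ beyond counting noise. Of the 4 tested members, 3 differed after Benjamini-Hochberg adjustment over all 443 genes tested, beside 52.8% of these genes. All 3 were higher in replicate 1, beside 59.8% of all genes that differed. Genes that differed and were higher in replicate 1 made up 31.6% of genes tested. Most genes of these libraries differed in this sense, so the 3 calls are no result particular to the members. The median log2 ratio, replicate 2 over replicate 1, was -0.43 over the 4 tested members and -0.17 over all genes tested. All 4 ratios were below 0, as were 263 of the 443 genes (59.4%).

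Mir298 differed most. Its log2 ratio was -1.98 (exact 95% interval -2.08 to -1.87), a 3.93-fold difference after scaling, and its p was below the smallest number the calculation can hold. Of the 277 genes averaging 10 CPM or more, 6 (2.17%), Mir298 included, lay at least this far apart in either direction. The median gene lay 1.32-fold apart. Mir335 had a log2 ratio of -0.47 (-0.50 to -0.43, exact binomial test, adjusted p = 6.2e-173), and 41.2% of the 277 genes were at least as far apart. Mir296 had -0.39 (-0.50 to -0.27, exact binomial test, adjusted p = 1.7e-11), and 52.0% were at least as far apart. Mir483 had -0.15 with an interval from -0.75 to 0.39 (exact binomial test, adjusted p = 0.76), so a difference within this interval was not detectable at its depth. With 1 library on each side, these p-values compare libraries and no conditions.

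**Figure D3:**
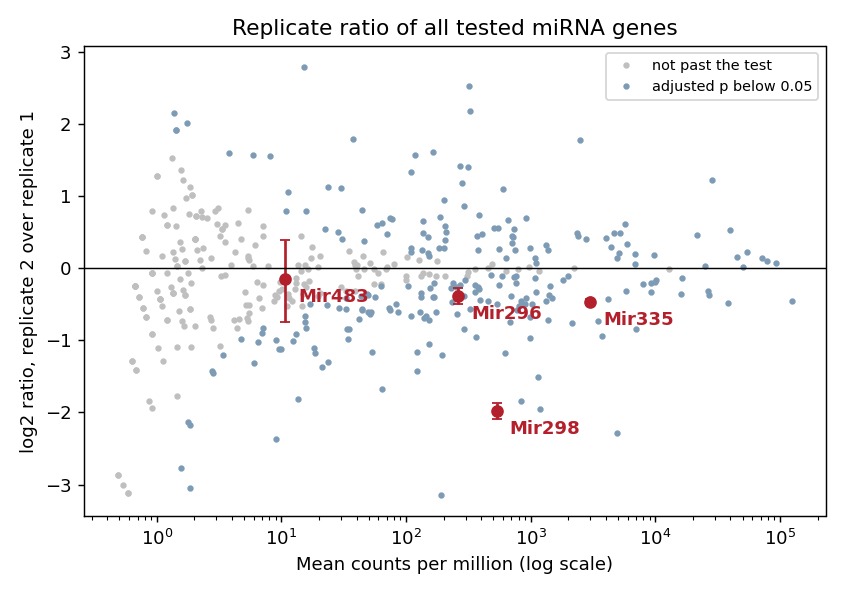
Log2 ratio of replicate 2 over replicate 1 against mean CPM (log scale) for the 443 tested miRNA genes, grey where the adjusted p was 0.05 or more, with the 4 tested members in red and their exact 95% intervals. Mir298, at -1.98, lies below nearly all genes of its level, while Mir335, Mir296 and Mir483 lie within the bulk.

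Ratios within a library do not depend on how the libraries were scaled. The ratio of Mir335 to Mir296 was 11.7 (exact 95% interval 11.3 to 12.2) in replicate 1 and 11.1 (10.3 to 11.9) in replicate 2, with overlapping intervals although the genes lie on different chromosomes. The ratio of Mir296 to Mir483 was 26.2 (21.7 to 31.8) and 22.4 (16.1 to 32.3), also overlapping. The ratio of Mir298 to Mir296, its neighbour at 378 nt, was 2.89 (2.77 to 3.01) in replicate 1 and 0.959 (0.868 to 1.06) in replicate 2. These intervals do not overlap, and the ratio changed 3.01-fold between the libraries.

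Because both hairpins lie close together on 1 strand, their sequences are shown whole, 5′ to 3′, with the mature strands in capitals:
Mir298 hairpin: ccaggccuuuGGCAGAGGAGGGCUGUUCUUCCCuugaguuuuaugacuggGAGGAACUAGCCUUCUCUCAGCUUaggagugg
Mir296 hairpin: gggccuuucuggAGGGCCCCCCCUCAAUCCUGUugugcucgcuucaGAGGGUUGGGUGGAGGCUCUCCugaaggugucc

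The hairpins are alike in size and predicted fold. Mir298 has 82 nt with 53.7% G or C and 17 bases between its mature strands, and Mir296 has 79 nt with 63.3% and 13 bases. Their predicted minimum free energies were -42.7 and -43.2 kcal/mol, with 78.0% and 78.5% of bases paired. Mir335, at the highest level, had the lowest G or C share of the 5 hairpins (42.9%) and -44.3 kcal/mol over 98 nt. Mir675, without a count, had -56.0 kcal/mol over 84 nt, and Mir483 -33.8 kcal/mol over 73 nt, so whole-hairpin energies did not follow the levels. Per nt, Mir335 had -0.452, Mir298 -0.521, Mir296 -0.547, Mir483 -0.463 and Mir675 -0.667 kcal/mol. In these values only Mir483 departed from the order of mean levels. A relation of fold energy to level was not tested.

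Other neighbouring miRNA genes give a measure for the Mir298 and Mir296 pair, in a comparison chosen after the values were seen. There were 96 pairs of adjacent genes on 1 strand within 10 kb of each other, both averaging 10 CPM or more. Their log2 replicate ratios differed by a median of 0.45, and those of Mir296 and Mir298 by 1.59. This was the seventh largest difference, so 7 of the 96 pairs, including this one, were at least as far apart. Adjacent pairs share genes where 3 or more stand in a row, so the pairs are not independent.

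**Figure D4:**
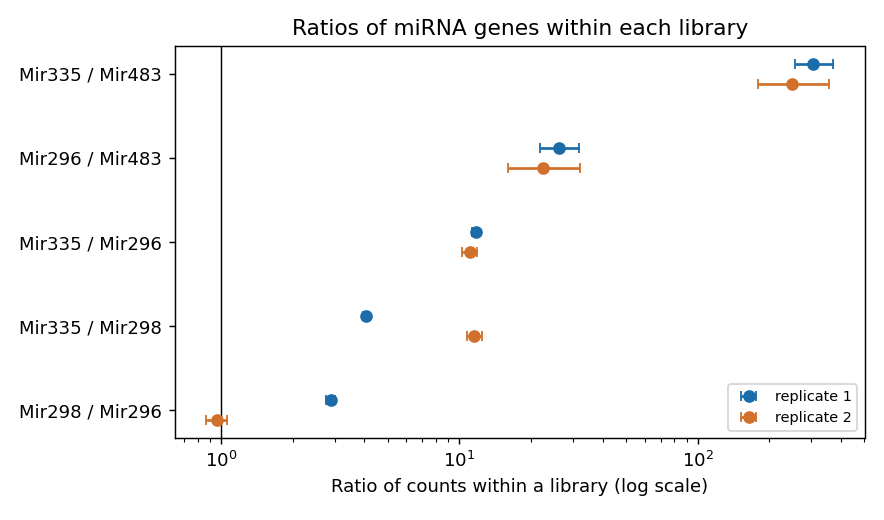
Ratio of counts between genes within replicate 1 (blue) and replicate 2 (orange) on a log scale, with exact binomial 95% intervals. Ratios without Mir298 overlap between the replicates, whereas Mir298 / Mir296 moves from 2.89 to 0.959 and Mir335 / Mir298 from 4.05 to 11.6.

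Among the marker lists of other cell types, the erythroid, pancreatic acinar, epithelial and liver sums were higher in replicate 1, as Mir298 was. The acinar ratio of replicate 1 over replicate 2 was 5.84, from sums of 1.66 and 0.284 CPM. The epithelial ratio was 1.13, with 2 of 5 members higher in replicate 1, and the liver ratio 1.06. The kidney and gut ratio was 0.892, although 3 of its 4 members were higher in replicate 1, and the muscle ratio 0.748. The 3 erythroid members summed to 8370 CPM in replicate 1 against 1814 CPM in replicate 2, a ratio of 4.61, and none was at 0. Mir451a had 8085 and 1685 CPM, and Mir144 had 272 and 119 CPM. Mir486 had 13.2 and 9.93 CPM and was not past the replicate test. The leukocyte list summed to 681 and 984 CPM, with none of its 4 members at 0. Mir142, Mir150 and Mir223 were higher in replicate 2, whereas Mir155 was higher in replicate 1, with 172 and 108 CPM. The summed neuroendocrine, endothelial and smooth muscle lists had ratios of replicate 1 over replicate 2 of 0.918, 0.941 and 0.962. The neuroendocrine sum is set by Mir375 (68022 and 76044 CPM), while 5 of its 7 members were higher in replicate 1, among them Mir7b with 4743 and 3557 CPM. The part of these differences in the values of Mir298 was not tested.

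Within 1 Mb of the 5 hairpins, miRNA genes other than the members were detected only near Mir335. There, 4 of 6 were detected, all on the opposite strand, beside 12.1% of all miRNA genes. Mir29a, known for restraining collagen genes, had 5168 ± 1251 CPM (SD, n = 2) at a distance of 321 kb and, unlike Mir335, was higher in replicate 2, with 4283 and 6053 CPM. Mir29b-1 had 33.2 ± 8.85 CPM, and Mir182 and Mir183, known from sensory and neuroendocrine cells, had 83.0 ± 19.5 and 49.6 ± 14.4 CPM at 575 and 572 kb. Like Mir335, all of these were higher in replicate 1. Mir29b-1 had 39.5 and 26.9 CPM, Mir182 had 96.7 and 69.2 CPM, and Mir183 had 59.7 and 39.4 CPM. Around Mir675 and Mir483, no miRNA gene was detected apart from Mir483, and around Mir296 and Mir298 none apart from these 2. Gm27591, an annotated miRNA gene on the opposite strand 19.1 kb from Mir296, had no count. The antisense column of the 5 genes held 2 reads in all, both at Mir335 in replicate 1, which is within the limit that a count of 0 allows.

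The genes nearest in level, by Euclidean distance of log2(CPM + 1) over the 2 libraries, were Mir27b (3397 and 2565 CPM, distance 0.03) and Mir541 (4269 and 2598 CPM, 0.30) for Mir335. For Mir296 they were Mir501 (288 and 221 CPM, 0.07) and Mir383 (274 and 231 CPM, 0.11). For Mir483 they were Mir6240 (11.1 and 9.08 CPM, 0.16) and Mir1947 (12.7 and 9.93 CPM, 0.16). Mir298 had no such close match. Its nearest genes, Mir221 (851 and 381 CPM) and Mir7-1 (479 and 251 CPM), lay at 0.79 and 0.85. With 2 libraries, likeness here means a like level in each and carries no test.

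Other imprinted regions hold many more miRNA genes. Between Dlk1 and Dio3 on chromosome 12, whose miRNAs come from the maternal chromosome, 67 miRNA genes are annotated, of which 48 (71.6%) were detected and which took 6.03% ± 0.56 of counts (SD, n = 2). The leading ones were Mir127 (16139 ± 2729 CPM), Mir411 (12816 ± 37.6 CPM) and Mir379 (9900 ± 867 CPM). By mean level, Mir335 would stand behind 5 of these 67 genes, Mir296 behind 23 and Mir483 behind 48. Mir298 would stand behind 15 by its mean, but behind 10 in replicate 1 and 25 in replicate 2. Within Sfmbt2, a paternally expressed gene with a rodent miRNA cluster, 6 of 119 (5.04%) were detected, and the cluster took 0.109% ± 0.014. Its leading genes were Mir467d (391 ± 79.9 CPM), Mir467e (272 ± 28.0 CPM) and Mir467c (153 ± 13.6 CPM). Many genes of that cluster are near-identical copies, whose reads may be set aside as multimapping, and 105 had no count.

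The replicate test called 38 of 52 tested genes between Dlk1 and Dio3, 21 of them higher in replicate 1, with a median log2 ratio of -0.10. It called 7 of 9 within Sfmbt2, 5 of them higher in replicate 1, with a median of -0.23. These shares, and the 3 of 4 of the H19, Igf2, Mest and Nespas loci, are above the 52.8% of all 443 genes tested. That share includes genes with as few as 10 counts, where a difference is harder to detect. It was not matched for level, so it does not set these lists apart from other genes of like level. No difference between the lists was tested.

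**Figure D5:**
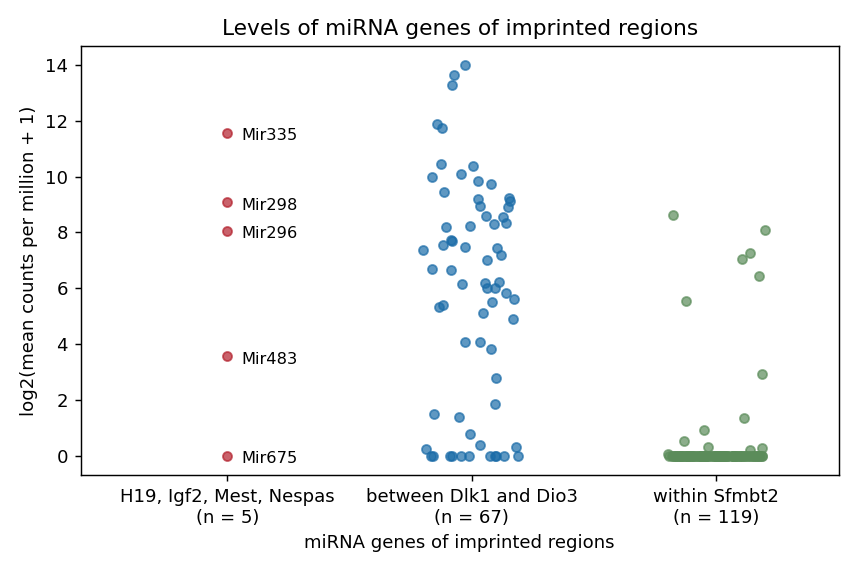
Level, as log2 of mean CPM plus 1, of each miRNA gene at the H19, Igf2, Mest and Nespas loci (5 genes), between Dlk1 and Dio3 (67 genes) and within Sfmbt2 (119 genes), with points spread sideways for legibility. Mir335 lies near the top of the Dlk1 to Dio3 range, Mir483 low in it, and 105 of the Sfmbt2 genes have no count.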

How the data were processed

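The authors deposited raw counts per miRNA gene for mouse adrenal small RNA, in 1 table per library with 3 count columns (without regard to strand, on the strand of the gene, on the opposite strand) and 4 summary lines. The tables have no header, so the columns were identified by their sums, most reads at miRNA genes falling in the second. Build mm10 and annotation M21 are named per the file headers of the accompanying descriptions. For the aligner and counter, no name is given in the sources used here. Sense counts were used, summary lines were left out, and multimapping reads entered no gene. CPM, Wilson and exact binomial 95% intervals and the exact binomial replicate test (genes with 10 or more counts, TMM factors 0.994 and 1.01, Benjamini-Hochberg at 0.05, 0.5 counts added in log2 ratios) were computed with edgeR 4.0.16 in R 4.3.3, Python 3.11.15 and scipy 1.17.1. The test was checked on counts simulated with counting noise alone, the noise it assumes. That check therefore cannot show how the test behaves on libraries with a wider spread. ViennaRNA 2.7.2 folded the hairpins at its default settings. Identifiers matched GENCODE M21, and sequences came from RefSeq (GRCm38.p6). Text names all 5 members, the 2 genes nearest each counted member in level, the 3 highest of each imprinted list, detected miRNA genes within 1 Mb, genes sharing a seed (none was found) and cell type markers that moved with a member. Members, lists and thresholds were chosen with earlier results of these data known.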

Additional observations from a re-analysis of the deposited data

How the results depend on the processing

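With 2 libraries of 1 group, no groups could be compared, and leaving out a replicate always stays within 1 SD of the mean, so that check says little here. The summed share was 0.381% of assigned counts, and between 0.300% (without replicate 1) and 0.462% (without replicate 2). Per all reads, unmapped included, it was 0.165%, since a larger total enters the share. Without Mir298, an alternative chosen after seeing the data, it was 0.327%. Detected members numbered 4, or 3 at 100 CPM, and members differing between replicates numbered 3 under library totals, DESeq2 size factors (version 1.42.0), no count minimum and the column without strand, with all 12 recomputed log2 ratios keeping their direction and side of the threshold. Without a count minimum, 29.5% rather than 52.8% of genes tested were past the threshold. Mir483 is the member whose call of detection sits on the threshold. Its mean was 9.98 CPM over uniquely mapped reads and 12.3 CPM in the column without strand. The ratio of Mir298 to Mir296 depends on 1 library, with a mean of 1.92 and values of 2.89 without replicate 2 and 0.959 without replicate 1. Arms of a hairpin, allele of origin and host transcripts were not measured.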
